A study of Mus musculus with 4 samples.

Results

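The genes described here are 8 members of the activin and transforming growth factor beta (TGF-β) pathway, of 19059 genes measured: the ligand genes Inhba and Tgfb1, the receptor genes Acvr1b, Acvr2a, Tgfbr1 and Tgfbr2, and the inhibitor genes Fst and Smad7. They were chosen by name, with earlier results of these data in view, so the difference of Inhba between the combination and isotype control and its overlap with Nos2 are a description of that choice. Single-cell RNA sequencing was done on viable CD45-positive cells sorted from MC38 tumors, a mouse colon carcinoma line injected under the skin of B-hCTLA-4 mice of C57BL/6 background, which carry a humanized CTLA-4 gene. According to the sample records, 11 mice were pooled for each of 4 groups, treatment began at about 100 mm3, and tumors were taken on day 8 after 3 treatments; the article gives other doses, numbers of tumors and days. The groups received isotype control (hIgG1, 10 mg/kg), anti-human CTLA-4 (ipilimumab, a human IgG1, 10 mg/kg), anti-mouse FcgRII (clone AT130-2 as mIgG1 with the Fc change N297A, 20 mg/kg), or the combination of both antibodies.

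There was 1 library per group, so no test between groups was possible and each group cannot be told apart from its library, its pool of mice and its preparation. For both libraries treated with 1 antibody, the title and the treatment field name different antibodies. The library with anti-human CTLA-4 in its title is called single antibody A and the one with anti-mouse FcgRII single antibody B, and it could not be settled which one was given ipilimumab. All intervals are 95% intervals that cover counting error only, and levels are UMIs (unique molecular identifiers, each standing for 1 captured probe pair) added up within a cell class and scaled to 1000000 UMIs of it (CPM). Genes are not compared with each other in level, because the number and the efficiency of the probes differ between genes.

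Activins are dimers of inhibin beta chains, and the chain encoded by Inhba makes activin A. Activins bind type II receptors such as the one encoded by Acvr2a, which activate the type I receptor encoded by Acvr1b, while TGF-β1, the product of Tgfb1, uses the type II receptor of Tgfbr2 and the type I receptor of Tgfbr1; both routes phosphorylate the same receptor-regulated SMAD proteins. Follistatin, encoded by Fst, binds activin outside the cell and keeps it from its receptors, and Smad7 is an inhibitory SMAD that acts on type I receptors and is itself induced by the pathway. Macrophages are known to make activin A after inflammatory stimulation, and Nos2, the inducible nitric oxide synthase, is a usual marker of that state.

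The libraries held between 129151823 and 196362818 UMIs over 6097 to 8173 cells. No complete cell barcode was shared between any pair of them, but 712 to 1148 sequences of the first 16 barcode bases were shared per pair. According to the article, samples were hybridized with barcoded probe sets and pooled before loading. Whether all libraries were in the same pool was not tested. After filters, 26785 cells formed 27 clusters, of which 12 were macrophage-like and 2 monocyte-like by their markers. These 14 clusters are called monocytes and macrophages below and held 5478, 4282, 4579 and 4793 cells in isotype control, single antibody A, single antibody B and the combination, with median depths of 14728, 17726, 18842 and 20167 UMIs per cell. The monocyte genes Ly6c2 and Cx3cr1 were not in the probe set. A cluster of 45 to 96 cells per library, led by the collagen genes Col3a1, Col6a2 and Col6a1, is called fibroblast or tumor cells; between 27.1% and 53.8% of its cells had a UMI of Ptprc, the CD45 gene, against 98.4% to 99.0% of monocytes and macrophages.

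Inhba lies at chr13:16011851-16031621 and Tgfbr1 at chr4:47353222-47414931 on the forward strand of GRCm38. The 250 bases before the start of each are shown because these were the members with the highest and the lowest ratio of the combination to isotype control in monocytes and macrophages. The sequences are from RefSeq (GRCm38.p6), read 5′ to 3′ on the forward strand, at chr13:16011601-16011850 and chr4:47352972-47353221, and capitals mark a TATAAA motif.
Inhba: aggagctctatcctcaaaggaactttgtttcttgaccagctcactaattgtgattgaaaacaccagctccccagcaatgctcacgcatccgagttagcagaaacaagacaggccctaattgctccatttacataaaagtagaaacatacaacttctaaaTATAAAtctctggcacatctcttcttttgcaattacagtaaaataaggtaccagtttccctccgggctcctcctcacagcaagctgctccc
Tgfbr1: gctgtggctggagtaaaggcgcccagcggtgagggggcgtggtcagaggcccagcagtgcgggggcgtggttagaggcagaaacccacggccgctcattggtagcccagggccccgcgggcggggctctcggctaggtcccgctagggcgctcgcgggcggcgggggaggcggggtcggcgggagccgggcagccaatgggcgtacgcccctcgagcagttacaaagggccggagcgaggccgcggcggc
The windows differed in base composition: that of Inhba held 43.2% G and C and 3 CG pairs, and that of Tgfbr1 held 74.8% and 29 CG pairs, against medians of 52.4% and 6 over 32851 promoter windows of the same length. Searched on both strands, TATAAA was found once in the Inhba window, 91 bases before the start, and not in that of Tgfbr1; 12.4% of all windows hold it. TGACTCA (the AP-1 motif, in 4.46% of windows), TTCNNNGAA (the GAS motif, in 7.02%) and GTCTAG (a Smad-binding motif, in 7.11%) were found in neither, which says only that these letters are not in these windows.

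Among the ligands, Inhba had its highest level in fibroblast or tumor cells in each library and a level that differed widely between libraries in monocytes and macrophages. In fibroblast or tumor cells its level was 430, 363, 336 and 465 CPM in isotype control, single antibody A, single antibody B and the combination, and between 97.4% and 100% of these cells had an Inhba UMI. In neutrophils, which were sequenced at a median depth of only 2981 to 3489 UMIs per cell, it was 259, 282, 196 and 407 CPM. The combination stood at 1.08 times isotype control (1.02 to 1.15) in fibroblast or tumor cells and at 1.57 times (1.31 to 1.89) in neutrophils, and both classes carried Inhba in every library.

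**Figure D1:**
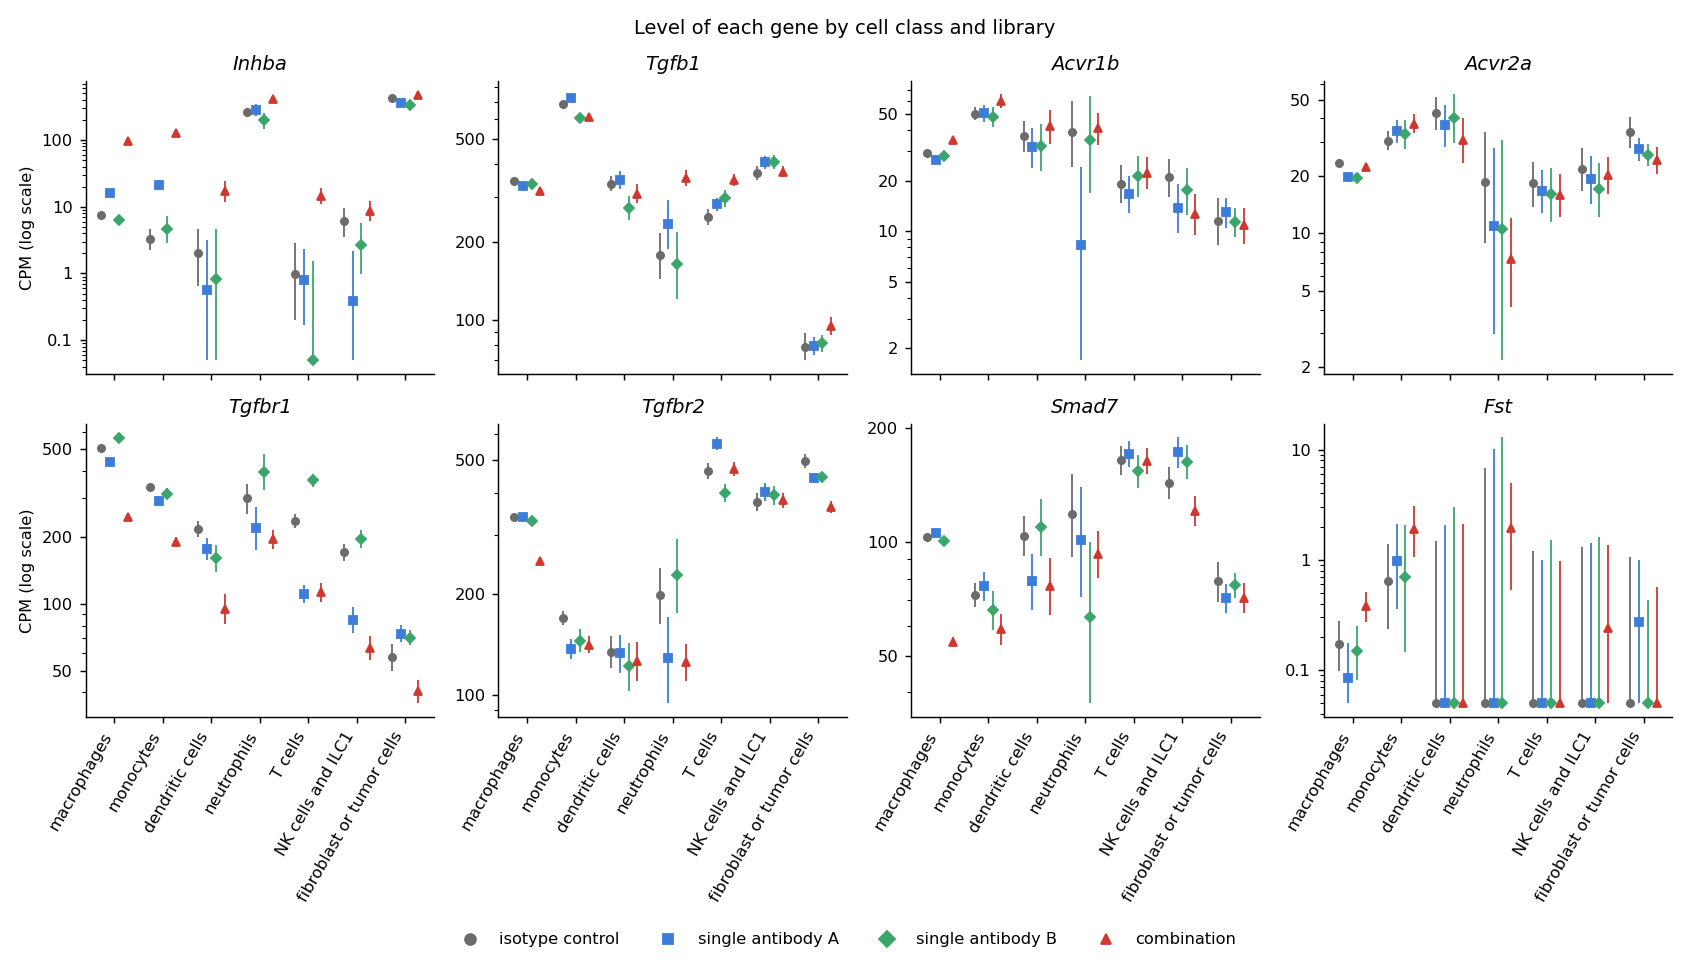
CPM on log axes of the 8 genes in 7 cell classes of the 4 libraries, with exact Poisson intervals that cover counting error only; values of 0 are drawn at the lower edge. Inhba stood at 97.6 CPM in macrophages of the combination against 6.37 to 16.2 CPM in the other libraries, whereas Tgfbr1 was lowest in the combination in macrophages, monocytes, dendritic cells, neutrophils, NK cells and ILC1, and fibroblast or tumor cells.

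In monocytes and macrophages together, Inhba stood at 7.10 CPM in isotype control, 16.6 CPM in single antibody A, 6.30 CPM in single antibody B and 99.5 CPM in the combination. The combination was highest, with 11763 Inhba UMIs against 729, 1459 and 617. The ratio to isotype control was 14.0 (13 to 15.1) for the combination, 2.34 (2.14 to 2.56) for single antibody A and 0.888 (0.796 to 0.989) for single antibody B. In single antibody B, 1 cell with 165 UMIs held 26.7% of all Inhba UMIs of the class, and a mean over cells, which gives each cell equal weight, put its ratio at 0.615. Among 9671 genes with at least 5 CPM in 1 of the libraries, 2.03% stood at least 2-fold above isotype control in the combination and 0.889% at least 2-fold below, and 29.3% stood above and 70.7% below it by any amount. Of the 7 members that reached that level, 1 (Inhba) was at least 2-fold higher and 1 (Tgfbr1) at least 2-fold lower, with 2 higher and 5 lower in all. Under median-of-ratios size factors, Tgfbr1 stood at 0.535 and was no longer past 2-fold. In single antibody A, 1 of the 7 (Inhba) was at least 2-fold higher, where 0.31% of all genes were, and 0 were at least 2-fold lower, where 0.445% were; 3 were higher and 4 lower, against 30.5% and 69.5% of all genes. In single antibody B none of the 7 was past 2-fold, against 0.124% of all genes higher and 1.53% lower, and 1 was higher and 6 lower, against 42.2% and 57.8%. Nothing is read from these counts because the members were chosen with these contrasts known.

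The difference was present in both parts of the class. In macrophages the level was 7.48, 16.2, 6.37 and 97.6 CPM in isotype control, single antibody A, single antibody B and the combination, and in monocytes it was 3.29, 21.3, 4.68 and 125 CPM. Dendritic cells stood at 17.1 CPM (11.6 to 24.5) in the combination and at 0.566 to 2.01 CPM in the other libraries, on 30 UMIs against 1 to 5. T cells had 55 Inhba UMIs in the combination and 0 to 3 elsewhere, a ratio to isotype control of 15 (4.86 to 74.8). Nos2 stood at 36.8, 20.5, 26.3 and 191 CPM in these T cells, and the part of macrophage RNA in their Inhba counts was not tested. In mast cells and basophils, 1 of 35 cells of the combination held all 32 Inhba UMIs. Monocytes and macrophages held 67.4% of all Inhba UMIs of the combination, against 28.3%, 34.5% and 17.3% in isotype control, single antibody A and single antibody B, where fibroblast or tumor cells held 58.0%, 62.2% and 80.1%.

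**Figure D2:**
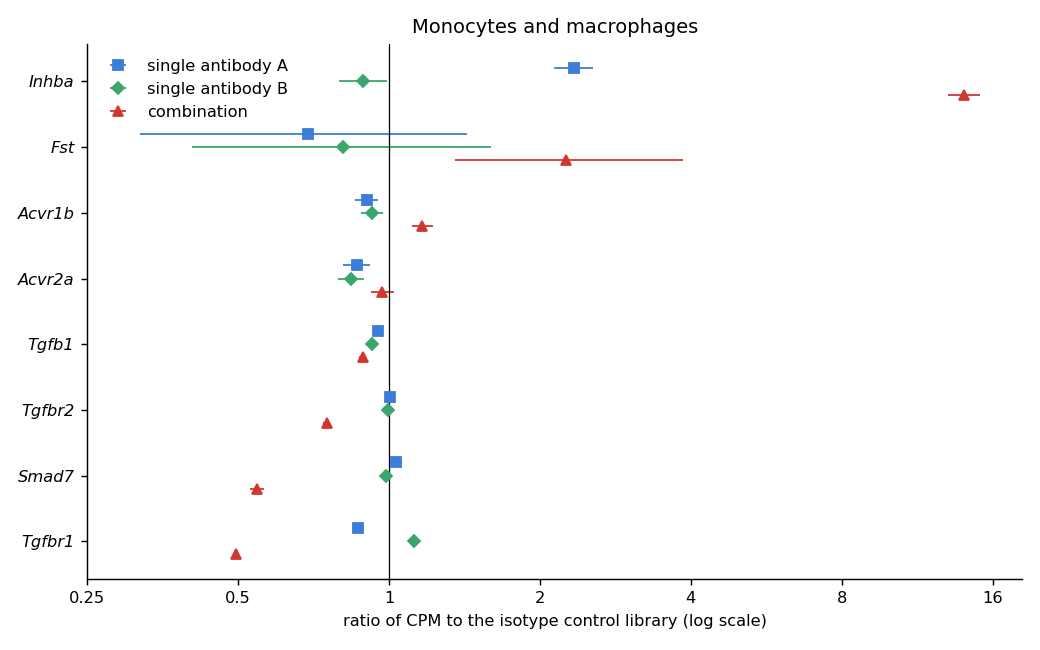
Ratio of CPM to the isotype control library in monocytes and macrophages for the 8 genes, on a log axis, with exact conditional intervals that cover counting error only; the vertical line marks a ratio of 1. Inhba of the combination lies at 14.0 and Tgfbr1 and Smad7 at 0.496 and 0.546, whereas both single antibodies lie within 0.690 and 1.12 for every gene but Inhba.

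An Inhba UMI was found in a minority of monocytes and macrophages in each library. After each cell was drawn down to 7018 UMIs, 2.03% of monocytes and macrophages had an Inhba UMI in isotype control (1.65% to 2.47%), 3.38% in single antibody A (2.82% to 3.99%) and 1.64% in single antibody B (1.27% to 2.06%). The combination had a share of 14.7% (13.7% to 15.8%). Relative to isotype control, the share in the combination was 7.25-fold (5.87 to 8.94). T cells, NK cells and ILC1, lymphocytes that served as background, had a share of 1.65%, 0.484%, 0.566% and 4.55% at the same depth, on 216, 253, 191 and 354 cells. Another 578, 778, 296 and 519 of these lymphocytes were shallower and left out, so the shares are those of the deeper cells. At this depth the shares of isotype control and single antibody B could not be told from those of their own lymphocytes, whose intervals were wide (0.507% to 4.67% and 0.0133% to 2.88%). Single antibody A lay above its interval (0.01% to 2.18%). The drawing down left out 380 to 751 cells of the class per library, and without it 4.29%, 5.89%, 3.69% and 21.1% of the cells had an Inhba UMI. The combination lay above the interval of its own lymphocytes (2.61% to 7.24%).

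The UMIs were unevenly spread over the positive cells. In the combination 1009 of 4793 monocytes and macrophages had an Inhba UMI, their median was 4 UMIs and the highest count 217, and 298 cells (6.22%) had 10 or more. In isotype control, single antibody A and single antibody B, 15, 37 and 12 cells had 10 or more, or 0.274%, 0.864% and 0.262%, and the highest counts were 65, 126 and 165. The 1% of cells with the most Inhba UMIs held 69.7%, 66.6% and 78.4% of the UMIs of the class in these 3 libraries and 37.2% in the combination.

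**Figure D3:**
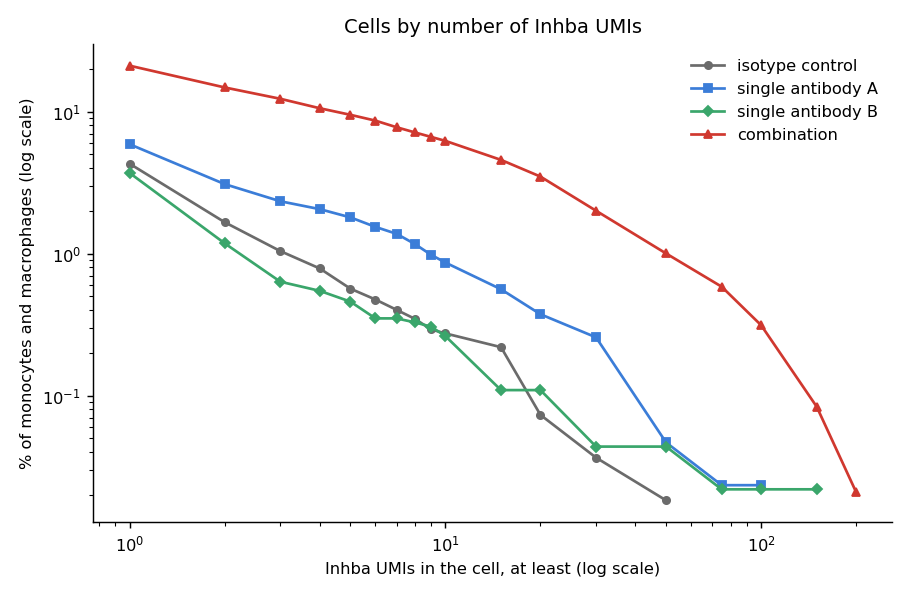
Share of monocytes and macrophages (vertical, log axis) with at least a given number of Inhba UMIs (horizontal, log axis) in the 4 libraries, without drawing down. The combination lies above the other libraries at each count; 6.22% of its cells had 10 or more UMIs, against 0.262% to 0.864%.

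In all 14 clusters of monocytes and macrophages the Inhba level of the combination was above that of isotype control beyond counting error. The ratios lay between 5.46 (2.67 to 12.6) and 51.9 (17.1 to 257), with a median of 12.7. Single antibody A was higher than isotype control in 9 of 14 clusters, with 6 higher and 1 lower beyond counting error, and single antibody B in 5 of 14, with 1 higher and 4 lower beyond it. The highest level in the combination, 482 CPM, was in the macrophage cluster led by Ctsk, Hspa1a and Hspb1, a lysosomal protease and heat shock genes, which stood at 31.6, 60.7 and 15.7 CPM in isotype control, single antibody A and single antibody B. It held 44.3% of the Inhba UMIs of the class in the combination in 10.9% of its cells. The cluster led by Mmp12, Clmp and Cxcl3, with Nos2 among its 10 leading genes, followed at 351 CPM against 55.4, 154 and 124, and held 23.8% of the UMIs in 7.03% of the cells.

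The monocyte cluster led by Plac8, Chil3 and Cd177 stood at 174 CPM in the combination and at 6.77, 35.2 and 7.78 CPM in isotype control, single antibody A and single antibody B, whereas the monocyte cluster led by Ace and Adgre4 stood at 29.4 CPM against 0.567, 5.24 and 0, the last on a count of 0. In the cluster led by Cbr2, Folr2 and Gas6, genes of resident macrophages, isotype control stood at 0.977 CPM and the combination at 17.4 CPM, and in the clusters led by cell division genes the combination stood between 7.62 and 20.5 CPM. Inhba was higher in the combination beyond counting error in 7 of 8 named classes, T cells among them. The part of RNA from other cells in the lower cluster levels was not tested. With the Inhba levels of isotype control in each cluster and the cluster mix of the combination, the class would have stood at 9.0 CPM, against 7.10 CPM in isotype control and 99.5 CPM as measured.

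**Figure D4:**
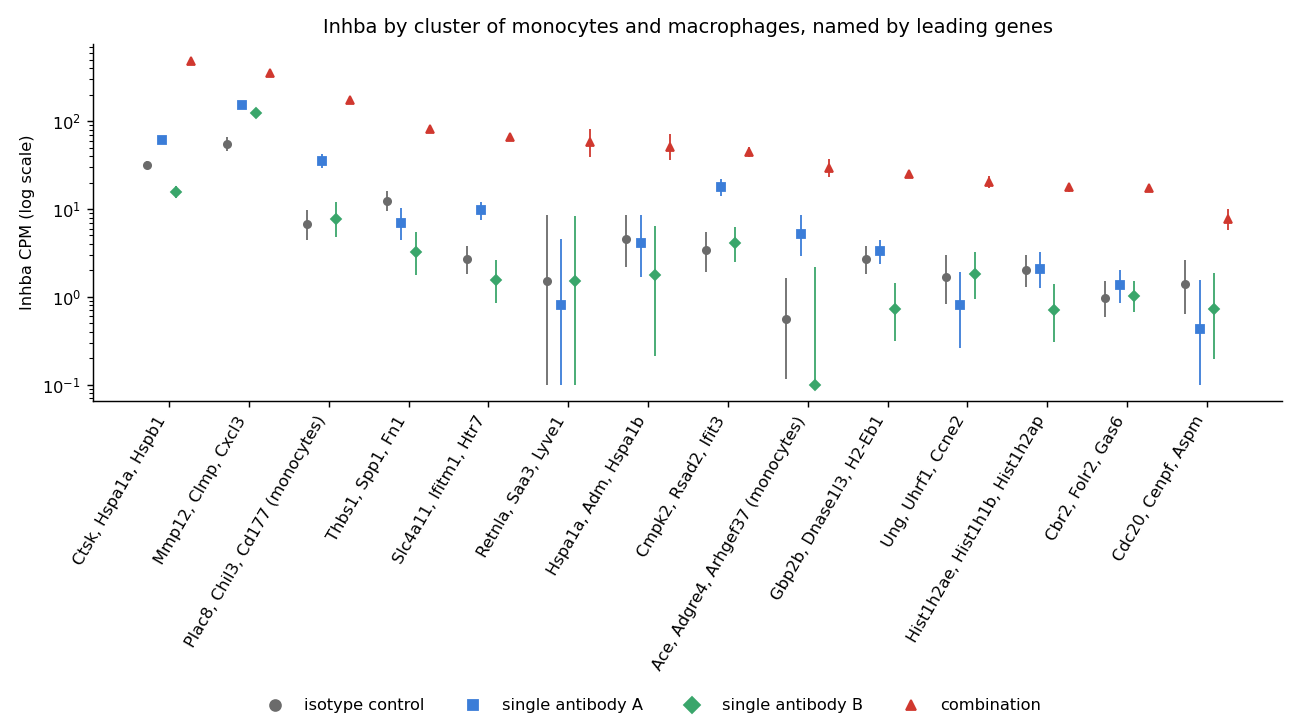
Inhba CPM on a log axis in the 14 clusters of monocytes and macrophages, named by their 3 leading genes and ordered by the level in the combination, with exact Poisson intervals; a value of 0 is drawn at the lower edge. The combination was above isotype control in all 14 clusters, from 7.62 to 482 CPM.

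Inhba-positive cells carried Nos2 more often than Inhba-negative cells of the same library. After drawing down, 75.7% of the Inhba-positive monocytes and macrophages of the combination (72.1% to 78.8%) had at least 3 Nos2 UMIs, called Nos2-high, against 32.7% of the Inhba-negative cells (31.2% to 34.2%), a ratio of 2.31 (2.17 to 2.47). The shares were 33.3% and 6.16% in isotype control, 55.5% and 11.2% in single antibody A, and 22.0% and 4.98% in single antibody B, with ratios of 5.42 (4.00 to 7.34), 4.97 (4.15 to 5.93) and 4.42 (2.78 to 7.02). Most Nos2-high cells had no Inhba UMI. In the combination 28.6% of them had one (26.4% to 30.8%), against 5.88% of its other cells, and 10.1%, 14.8% and 6.85% of the Nos2-high cells did in isotype control, single antibody A and single antibody B.

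At the same depth, 14.4%, 22.0%, 12.1% and 54.7% of monocytes and macrophages had a Nos2 UMI in isotype control, single antibody A, single antibody B and the combination. The shares were 5.63%, 4.18%, 4.90% and 23.6% in the lymphocytes of at least that depth. Without drawing down, 817 cells of the combination had both an Inhba UMI and at least 3 Nos2 UMIs, and 125 of its 1009 Inhba-positive cells had no Nos2 UMI. Nos2-high cells made up 50.5% of monocytes and macrophages in the combination and held 86.1% of their Inhba UMIs. In isotype control, single antibody A and single antibody B, they made up 11.2%, 18.6% and 9.50% of the cells and held 50.6%, 75.7% and 28.7% of the Inhba UMIs. In single antibody B, 1 cell with no Nos2 UMI held 26.7% of the Inhba UMIs, which lowers its share of 28.7%.

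Inhba was also higher in the combination within each range of Nos2 UMIs. In cells with no Nos2 UMI it stood at 3.69, 4.41, 3.98 and 29.4 CPM in isotype control, single antibody A, single antibody B and the combination, and in cells with 10 or more it stood at 41.7, 93.0, 28.5 and 189 CPM. In single antibody B, 1 cell held 165 of the 310 Inhba UMIs of cells with no Nos2 UMI. The combination stood at 7.97 times isotype control (6.98 to 9.12) at 0 Nos2 UMIs, 5.26 (4.13 to 6.78) at 1 to 2, 3.42 (2.80 to 4.22) at 3 to 9 and 4.55 (4.02 to 5.16) at 10 or more. In all cells that were not Nos2-high the ratio was 7.73 (6.89 to 8.69), and 3.81 (3.42 to 4.25) when the cells were taken by a marker gate in place of clusters. At 7018 UMIs, 5.88% of the combination's cells that were not Nos2-high had an Inhba UMI. This share lay within the interval of its own lymphocytes (2.61% to 7.24%) and could not be told from theirs. The part of RNA from other cells in these counts was not tested. With the Inhba levels of isotype control in each of these 4 ranges and the Nos2 mix of the combination, the class would have stood at 21.4 CPM, against 99.5 CPM as measured. The range of 10 or more has no upper limit, and its median depth was 19148 UMIs in isotype control and 22261 in the combination. Differences in Nos2 between libraries within a range were not taken into account.

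**Figure D5:**
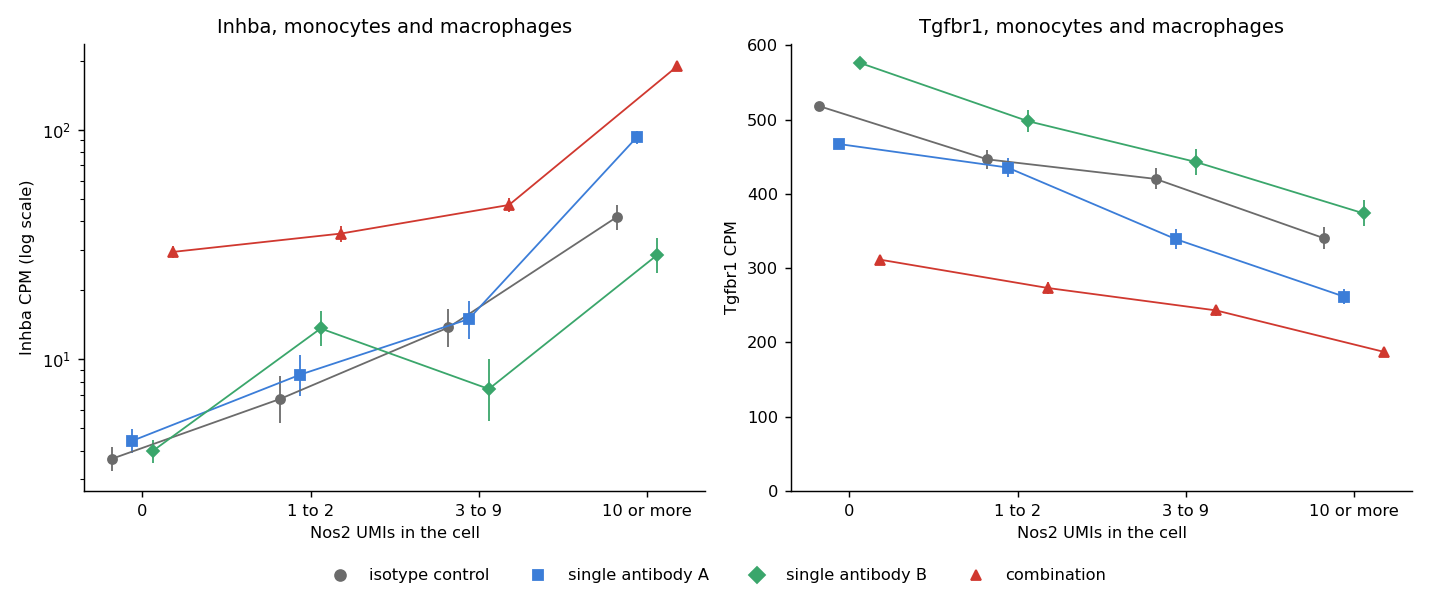
Level of Inhba (left, log axis) and Tgfbr1 (right, linear axis) in CPM in monocytes and macrophages with 0, 1 to 2, 3 to 9 and 10 or more Nos2 UMIs, by library, with exact Poisson intervals. Inhba of the combination was above the other libraries in each range, from 29.4 to 189 CPM, and Tgfbr1 of the combination was below them, from 312 to 187 CPM.

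Apart from Nos2, Inhba-positive monocytes and macrophages had higher levels of hypoxia and arginine genes in each library. In cells with at least 7018 UMIs, all 6 genes of that list (Arg1, Spp1, Vegfa, Slc2a1, Egln3 and Hilpda) were higher in Inhba-positive than in Inhba-negative cells of each of the 4 libraries, beyond counting error, with median ratios of 1.92, 2.09, 1.84 and 1.73 in isotype control, single antibody A, single antibody B and the combination. Hilpda, a lipid droplet gene induced by hypoxia, stood at 361 against 116 CPM in the combination, and Arg1, the arginase gene, at 4830 against 3299 CPM. By comparison, the median ratio over all genes with at least 50 CPM in either kind of cell was between 0.946 and 0.970, 33.5% to 36.7% of these genes were higher, and 1.82% to 4.43% were at least 1.5-fold higher.

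The 10 inflammatory genes were Nos2 itself, Il1b, Tnf, Il6, Il12b, Ptgs2, Cxcl9, Cxcl10, Cd40 and Ccl5. Of these, 9 were higher in Inhba-positive cells of the combination, with a median ratio of 1.65. Nos2, at a ratio of 3.09, is counted among the 9. Il1b, which encodes interleukin-1β, stood at 1332 against 432 CPM there, and Ptgs2, the inducible cyclooxygenase, at 331 against 95.2 CPM. Cxcl9, a chemokine induced by interferon gamma, was the exception at 1664 against 2000 CPM. In isotype control, single antibody A and single antibody B the ratio of Ptgs2 was 2.96, 4.72 and 3.40 and that of Il1b 1.62, 3.01 and 2.08. Of the 10 genes 8, Nos2 included, were higher in each of these libraries, with 5, 8 and 7 higher beyond counting error and 1, 1 and 0 lower beyond it. The stress genes Hmox1 and Gpnmb were higher in Inhba-positive cells of each library, with ratios of 1.53 to 2.41 and 1.98 to 2.35, as was Fabp5, and Trem2 was lower beyond counting error in single antibody A (0.839) and the combination (0.792). Median depth was 20037 UMIs in the 935 Inhba-positive cells of the combination and 22057 in its 3478 Inhba-negative cells, and in isotype control, single antibody A and single antibody B it was 22191, 19914 and 22404 UMIs in the 196, 220 and 152 positive cells against 16547, 19299 and 20024 UMIs in the negative cells.

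Resident and monocyte genes went different ways in different libraries. All 6 resident genes were lower in Inhba-positive cells of the combination, 5 beyond counting error, with a median ratio of 0.573, and all 6 were lower beyond counting error in single antibody A. In isotype control 4 of 6 were higher, 3 beyond counting error, and in single antibody B 2 of 6, 1 beyond it. Of 5 monocyte genes, 3 were higher in Inhba-positive cells of the combination and of single antibodies A and B, and 0 in isotype control. Chil3, a chitinase-like gene of monocytes, stood at 847 against 393 CPM in the combination and at 179 against 318 CPM in isotype control. The MHC class II genes H2-Aa, H2-Ab1, H2-Eb1, Cd74 and Ciita had ratios between 0.771 and 1.15 in all libraries. The 4 interferon genes were higher in Inhba-positive cells of the combination and of single antibodies A and B, with median ratios of 1.24, 1.82 and 1.25, and 1 of 4 was in isotype control.

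Among all genes with at least 50 CPM in the combination, the 10 with the highest ratio in Inhba-positive cells were Cxcl3, Ptges, Slpi, Il1a, Ccl17, Mmp8, Mmp12, Hcar2, Cd1d1 and Cxcl2. Cxcl3, a neutrophil-attracting chemokine gene, stood at 197 against 15.8 CPM (ratio 12.5), Ptges, a prostaglandin E synthase gene, at 79.6 against 12.4 CPM (6.41), Slpi, a protease inhibitor gene, at 563 against 94.6 CPM (5.95) and Il1a at 243 against 46.7 CPM (5.19). All 10 were also higher in Inhba-positive cells of single antibodies A and B, and 9 in isotype control, where Ccl17 had a ratio of 0.293. The neutrophil markers together were also higher in Inhba-positive cells of the combination, at 442 against 269 CPM. The part of neutrophil RNA in this list of 10 was not tested. The 5 lowest were Retnla (24.2 against 130 CPM) and the cell division genes Hist1h1a, Tpx2, Ccnb2 and Cdca3, with ratios of 0.445 to 0.492; these 4 had ratios of 0.913 to 1.23 in isotype control.

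The genes whose levels were most like that of Inhba over 28 profiles (7 classes in 4 libraries) were F3, Txn1, Fam114a1, Slc25a37 and Jdp2, with Pearson coefficients of log2(CPM + 1) of 0.946, 0.939, 0.914, 0.892 and 0.884 among 10378 genes. The profiles share libraries and their depth differs between classes, so the coefficients are a description. F3, the tissue factor gene, was highest in fibroblast or tumor cells (89.2 to 226 CPM) and neutrophils (87.7 to 268 CPM), and in monocytes stood at 18.0 CPM in the combination against 2.76 to 3.88 CPM in the other libraries.

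Tgfb1 lies at chr7:25687002-25705077 on the forward strand and, in contrast to Inhba, was detected in nearly all monocytes and macrophages, with a UMI in at least 94.4% of them in each library. Its level in the class was 378, 358, 349 and 334 CPM in isotype control, single antibody A, single antibody B and the combination, which put the combination at 0.886 of isotype control (0.873 to 0.898). The median of all 9671 genes was at −0.11 on the log2 scale in this comparison, and under median-of-ratios size factors, which moved all ratios by 0.11 on that scale, the ratio of Tgfb1 was 0.955. Monocytes had more Tgfb1 than macrophages in each library, at 604 to 725 against 314 to 346 CPM. In neutrophils Tgfb1 stood at 178, 235, 165 and 355 CPM, and in T cells at 251, 280, 295 and 347 CPM. The combination-to-isotype ratios were 2.00 (1.61 to 2.50) in neutrophils and 1.38 (1.26 to 1.51) in T cells.

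Of the activin receptors, Acvr1b, the type I receptor gene at chr15:101174067-101213684 (forward strand), was the only receptor gene of the list with a higher summed level in the combination. In monocytes and macrophages it stood at 31.3, 28.3, 28.9 and 36.5 CPM, and the combination had ratios of 1.17 (1.11 to 1.22) to isotype control, 1.29 (1.23 to 1.36) to single antibody A and 1.26 (1.2 to 1.32) to single antibody B. Of 14 clusters, 11 were higher than in isotype control and 5 of them beyond counting error. Monocytes had higher levels than macrophages in each library, at 47.9 to 59.9 against 26.6 to 34.8 CPM. Acvr2a, the type II receptor gene at chr2:48814109-48903269 (forward strand), stood at 24.0, 20.7, 20.1 and 23.3 CPM, and its ratio of 0.971 (0.919 to 1.03) turned to 1.05 under median-of-ratios size factors. Acvr1b had a UMI in 40.1% to 51.4% of these cells and Acvr2a in 30.1% to 36.6%.

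Tgfbr1, the type I receptor gene of TGF-β, had its lowest level in monocytes and macrophages in the combination. It stood there at 492 CPM in isotype control, 427 CPM in single antibody A, 551 CPM in single antibody B and 244 CPM in the combination. The ratios of the combination were 0.496 (0.489 to 0.503) to isotype control, 0.571 (0.563 to 0.580) to single antibody A and 0.443 (0.437 to 0.449) to single antibody B, and all 14 clusters were below isotype control, at 0.347 to 0.666 of it. After drawing down, 67.5% of the cells had a Tgfbr1 UMI in the combination, against 80.9% to 88.7%.

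Tgfbr1 was also lower in other cells. Among 8 named classes, 7 were below isotype control in the combination beyond counting error and none was higher: monocytes at 0.567, dendritic cells at 0.438, neutrophils at 0.655, T cells at 0.476, NK cells and ILC1 at 0.371 and fibroblast or tumor cells at 0.703 of isotype control, beside macrophages at 0.488. Mast cells and basophils, at 0.948 (0.760 to 1.18), were the class whose interval held 1. Single antibody A was lower than isotype control beyond counting error in 6 of the 8 classes and higher in 1. Single antibody B was higher in 6 and lower in 2. In all 14 clusters of monocytes and macrophages single antibody A was also lower beyond counting error, with a median ratio of 0.844. In T cells the levels were 237, 111, 363 and 113 CPM in isotype control, single antibody A, single antibody B and the combination, so that single antibody A stood beside the combination there, whereas in macrophages it stood at 438 CPM against 248 CPM.

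Tgfbr2, the type II receptor gene of TGF-β at chr9:116084293-116175360 (reverse strand), stood at 324, 325, 322 and 243 CPM in monocytes and macrophages. The other libraries lay close together, and the combination stood at 0.751 of isotype control (0.739 to 0.763), or 0.810 under median-of-ratios size factors. It was lower in 13 of 14 clusters, 11 of them beyond counting error. T cells stood at 465, 560, 400 and 471 CPM and NK cells and ILC1 at 376, 401, 393 and 379 CPM, with ratios to isotype control of 1.01 (0.944 to 1.09) and 1.01 (0.933 to 1.09).

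Both TGF-β receptor genes were lower in cells with more Nos2, and in Inhba-positive cells, in each library. Tgfbr1 stood at 518, 467, 577 and 312 CPM in cells with no Nos2 UMI and at 340, 262, 374 and 187 CPM in cells with 10 or more. Within these ranges the combination stood at 0.601 and 0.550 of isotype control. For Tgfbr2 it stood at 0.863 at 0 Nos2 UMIs, 0.999 (0.956 to 1.04) at 1 to 2, 0.868 at 3 to 9 and 0.807 at 10 or more, so that no difference was detectable in the second range. In Inhba-positive against Inhba-negative cells, Tgfbr1 had ratios of 0.736, 0.735, 0.791 and 0.678 and Tgfbr2 of 0.852, 0.805, 0.794 and 0.722 in isotype control, single antibody A, single antibody B and the combination.

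Of the inhibitors, Smad7 was lower in the combination and Fst was barely detected. Smad7 stood at 100, 104, 99.1 and 54.8 CPM in monocytes and macrophages, and the combination stood at 0.546 of isotype control (0.529 to 0.563), or 0.589 under median-of-ratios size factors, with 12 of 14 clusters lower beyond counting error and 1 higher beyond it. Macrophages (0.528) were further from 1 than monocytes (0.810, 0.719 to 0.913), and in T cells the ratio was 0.999 (0.887 to 1.13). Smad7 went against the direction of Tgfbr1 within each library, as it was higher in Inhba-positive than in Inhba-negative cells, with ratios of 1.30, 1.44, 1.39 and 1.24. It was also higher in cells with 10 or more Nos2 UMIs than in cells with none, at 66.3 against 40.2 CPM in the combination and 142 against 90.9 CPM in isotype control, while the combination was at 0.442 of isotype control in cells with no Nos2 UMI and at 0.466 in cells with 10 or more.

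Fst, at chr13:114452290-114458951 on the reverse strand, had 22, 13, 17 and 57 UMIs in monocytes and macrophages of isotype control, single antibody A, single antibody B and the combination. Its levels were 0.214, 0.148, 0.174 and 0.482 CPM, under the minimum of 5 CPM, and between 0.240% and 0.668% of the cells had a UMI. In summed level the combination stood at 2.25 times isotype control (1.35 to 3.87). The ratio of the shares of cells with an Fst UMI after drawing down was 1.94 (0.846 to 4.46), an interval that holds 1. Fst UMIs were clumped, as 34 of those in the combination lay in 16 cells with 10 or more Nos2 UMIs. In monocytes alone Fst stood at 0.636, 0.970, 0.702 and 1.89 CPM, on 6, 6, 3 and 15 UMIs. Among Inhba-positive cells of the combination there were 33 Fst UMIs against 22 in the more numerous Inhba-negative cells, a ratio of levels of 4.97 (2.81 to 8.95), and in the other libraries the positive cells held only 3 or 4 Fst UMIs. In dendritic cells and T cells no library had an Fst UMI, which allows levels of up to 2.47 CPM and 1.23 CPM in the shallowest library.

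The other genes of the pathway, a list of 56, were counted in the same way. Of the 30 with at least 5 CPM in monocytes and macrophages, 1 was at least 2-fold higher in the combination and 0 at least 2-fold lower, 11 were higher and 19 lower, where 2.03%, 0.889%, 29.3% and 70.7% of all genes were, and the median was −0.14 on the log2 scale beside −0.11 over all genes tested. Gdf15, a distant TGF-β family ligand of stressed cells, was the one at least 2-fold higher, at 14.6, 25.8, 13.4 and 31.4 CPM. In cells without a UMI of any neutrophil marker 0 genes of the list were past 2-fold, and with a marker gate in place of clusters 2 were. Among genes chosen after their values were seen, Pmepa1, a feedback inhibitor, stood at 424, 384, 527 and 251 CPM (0.592 of isotype control in the combination), Id3, a target gene, at 0.610 and Id2 at 1.08. The signal transducers Smad2, Smad3 and Smad4 stood at 0.815, 0.874 and 0.900, and the receptor genes Acvrl1 and Eng, used by the endothelial branch of the pathway, at 1.31 and 1.30. In single antibody A and single antibody B none of these 30 genes was 2-fold above or below isotype control.

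RNA of other Inhba-carrying cells was measured beside these results. The 6 neutrophil markers together stood at 167, 171, 133 and 310 CPM in monocytes and macrophages, all 6 were above isotype control in the combination, and in the combination they stood at 442 CPM in Inhba-positive and 269 CPM in Inhba-negative cells. In the 796 cells of the combination and 1468 of isotype control with no UMI of any neutrophil marker, the ratio of Inhba was 12.1 (10.5 to 14.0). The 10 fibroblast or tumor cell markers together stood at 15.1, 20.1, 13.8 and 6.87 CPM, lower in the combination, and in cells without a UMI of any of them the ratio of Inhba was 13.2 (12.2 to 14.4). In Inhba-positive cells of isotype control, single antibody A and single antibody B, these markers stood at 33.4, 86.2 and 36.1 CPM against 13.8, 15.8 and 12.8 CPM in Inhba-negative cells, and their part in the Inhba counts of those 3 libraries was not tested.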

How the data were processed

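UMI counts made by the authors with Cell Ranger, deposited as whole numbers without normalization, were used for 4 libraries. The submitters' notes name Cell Ranger 7.0.0 and mm10, the matrix headers 7.2.0. Cells with under 500 genes (67) or over 10% mitochondrial UMIs (48) were left out, some by both, and the 5% of cells of each library with the highest Scrublet scores (scanpy 1.11.5), 1409 cells in all. Libraries were normalized, integrated (3000 features, 30 components) and clustered (resolution 0.8) with Seurat 5.3.0 and sctransform 0.4.2 in R 4.3.3. Clusters were named from marker lists by a rule written after the clusters were seen. Clusters with T cell markers and Csf1r were set apart as mixed, and 1 cluster stayed unnamed.

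Levels are summed UMIs per 1000000 UMIs of a class. Shares needing a UMI were computed as exact hypergeometric expectations at 7018 UMIs, the 10th percentile of monocytes and macrophages, leaving out shallower cells. Intervals are Clopper-Pearson for shares, exact Poisson for levels, conditional binomial for ratios of levels and log intervals for ratios of shares (scipy 1.17.1). The statistics were tested on simulated counts. A count of 0 was taken to allow 3 UMIs.

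Named genes were the 8 members, pathway genes past 2-fold, the 5 genes most like Inhba over classes, the 10 highest and 5 lowest genes of Inhba-positive cells of the combination, and lists of macrophage states; other pathway genes given by name were chosen after their values were seen. The members and lists were chosen with earlier results of these data known. Promoter sequences matched 6 of 9 genes looked up (the members and Nos2). The alternatives were another clustering, gate, filter, scaling, depth or UMI minimum.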

Additional observations from a re-analysis of the deposited data

Results flagged for a closer look

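The combination-to-isotype ratio lay on opposite sides of 1, beyond counting error, between monocytes and macrophages and another class for 2 of the 8 genes. The difference between classes was not tested, since each group had 1 library. Acvr1b was at 1.17 (1.11 to 1.22) in monocytes and macrophages and at 0.604 (0.408 to 0.892) in NK cells and ILC1, on 52 UMIs in the combination and 59 in isotype control. Tgfb1 was at 0.886 (0.873 to 0.898) in monocytes and macrophages and at 1.38 (1.26 to 1.51) in T cells, 2.00 (1.61 to 2.50) in neutrophils and 1.2 (1.04 to 1.39) in fibroblast or tumor cells. The median depth of neutrophils was 3178 UMIs in the combination and 2981 in isotype control, and their number was 463 and 113 cells.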

How the results depend on the processing

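None of the 7 results recomputed changed direction. Another clustering (no integration, resolutions 0.4 and 1.2), kept doublet scores, stricter cell filters, added dendritic cells and a minimum of 20 CPM left each result within its counting interval, or its count within 1.5 times. With a marker gate in place of clustering, which kept 3034 cells of the combination and 4559 of isotype control, the ratio of the Inhba level was 9.37, that outside Nos2-high cells 3.81, the Nos2-high share of Inhba-positive cells 71.6%, its ratio to Inhba-negative cells 2.58, and 2 pathway genes passed 2-fold. The gate drops cells with an S100a8 UMI, and whether that set these values was not tested. The setting without neutrophil marker UMIs, given below, drops them too, and its ratio outside Nos2-high cells was 8.22 (6.19 to 11.05). The mean over cells gave 12.4 for the Inhba level and 6.18 outside Nos2-high cells. Without drawing down, the ratio of the Inhba shares was 4.91, the Nos2-high share 81.0% and its ratio 1.91, and at least 2 Inhba UMIs gave a ratio of shares of 14.8. Defining Nos2-high by 1 or 10 Nos2 UMIs gave shares of 84.7% and 56.7% and ratios of 1.71 and 3.45. In cells without neutrophil marker UMIs, chosen after seeing the data as was the same choice for fibroblast or tumor cell markers, the Inhba ratio was 12.1, the ratio of Nos2-high shares 2.80 and 0 pathway genes passed 2-fold. Members higher in the combination numbered 3 of 8 (Inhba, Fst and Acvr1b), 4 with median-of-ratios size factors, where Acvr2a joined them at 1.05, and 4 in cells without neutrophil marker UMIs. No paired analysis was possible because each group had 1 library. Fst, and the T cell values of Inhba, rest on too few UMIs for an order among isotype control and the single antibodies. Fst counts as higher in the combination by summed level only, since the interval of its ratio of shares after drawing down held 1.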

Other observations

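In the 916, 344, 403 and 789 cells with both T cell and macrophage markers, set apart before the comparisons, Inhba stood at 4.10, 2.95, 1.87 and 44.6 CPM in isotype control, single antibody A, single antibody B and the combination, and Tgfbr1 at 450, 376, 541 and 224 CPM. Their median depth was above that of monocytes and macrophages. In the unnamed cluster of 258 cells led by Igha, Krt19 and Igkc, Inhba stood at 51.1, 8.94, 9.11 and 91.3 CPM.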
